A study of Homo sapiens with 6 samples.

Results

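The 39 genes described here are those by which the epithelial-mesenchymal transition is usually read, in SW480 cells that expressed either POU5F1B or green fluorescent protein (GFP). They were taken from 2 lists of symbols, 15 that mark or maintain the epithelial state and 24 that mark or drive the mesenchymal state, and all 39 were found among the 63677 genes of the count tables. SW480 is an established line from a human colorectal adenocarcinoma. Every library came from cells transduced with a doxycycline-inducible lentiviral vector and given doxycycline at 1 µg/mL for 72 h before harvest, so the control cells differed in the insert, GFP in 3 libraries and POU5F1B in 3, and not in the drug. By the study's methods the inserts carried an HA tag and the transduced cells were selected with puromycin. Polyadenylated RNA was sequenced, and each library held between 10767947 and 12787637 counts assigned to genes. The labels do not say whether the 3 libraries of a group were separate cultures or separate transductions, so the p-values measure only the spread between these libraries.

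In an epithelium, neighbouring cells are held together by E-cadherin at adherens junctions, while the factors of the GRHL and OVOL families and the ESRP splicing regulators keep the epithelial genes on. In the mesenchymal state, repressors of the ZEB and SNAI families, which bind E-box motifs, silence E-cadherin and its partners, and cells gain vimentin filaments, fibronectin, other cadherins and contractile proteins. Tumour lines of the colon can carry features of both states, and the 2 states grade into each other.

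Before the members are described, the libraries need a word. POU5F1B, the transgene, was read at 6, 5 and 1 counts in GFP replicates 1, 2 and 3 and at 15027, 11393 and 1458 in the POU5F1B libraries, so every library matched its label, but POU5F1B replicate 3 held the transgene at 121 CPM (counts scaled to library size by TMM) against 1180 and 1054. Replicate 3 also stood apart across all genes. GFP replicates 1 and 2 differed with an SD of 0.33 on the log2 scale, and replicates 1 and 2 of POU5F1B with an SD of 0.34. GFP replicate 3 differed from the other GFP libraries with SDs of 0.99 and 0.92, and POU5F1B replicate 3 from its group with SDs of 0.58 and 0.62. What set replicate 3 apart was not tested, and the fold changes below are therefore also given from replicates 1 and 2 only. KRT8 and KRT18, keratins of simple epithelia, lay between 2911 and 4235 CPM in every library. The intestinal genes CDH17 and LGALS4 were at or below 0.833 CPM in all libraries but GFP replicate 3 and POU5F1B replicate 3, where CDH17 was read at 6.68 and 1.99 CPM. VIL1, which encodes villin of the brush border, was at 210 CPM in GFP replicate 3 and at 14.0 to 111 CPM elsewhere.

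The epithelial members were higher on average in the POU5F1B libraries than in the GFP libraries, and the mesenchymal members were slightly lower. The epithelial score, the mean log2 CPM of the 15 members, was 3.06, 3.03 and 4.11 in GFP replicates 1, 2 and 3 and 4.43, 4.36 and 3.95 in the POU5F1B libraries. The means were 3.40 ± 0.62 (SD, n = 3) and 4.25 ± 0.26 (SD, n = 3), a difference of 0.85, and the groups overlapped because GFP replicate 3 lay above POU5F1B replicate 3. The mesenchymal score over the 24 members was 3.76, 3.66 and 3.59 with GFP against 3.28, 3.12 and 3.45 with POU5F1B, and these groups did not overlap. Its means were 3.67 ± 0.09 (SD, n = 3) and 3.28 ± 0.17 (SD, n = 3), a difference of -0.39. Across the groups the replicate 3 libraries were closest, differing by -0.14 (POU5F1B minus GFP). The score includes members with too few counts for a test. Of these, THY1 had 7 counts in GFP replicate 3 and 2 in POU5F1B replicate 3, PRRX1 6 and 2, and CNN1 3 and 4. For the 16 members tested, the median log2 difference between these 2 libraries was 0.29, with POU5F1B replicate 3 higher. CDH11 (log2 fold change -3.77) also enters the score. With replicates 1 and 2 only, the differences were 1.35 for the epithelial and -0.51 for the mesenchymal score. The mesenchymal score exceeded the epithelial score by 0.70 and 0.63 in GFP replicates 1 and 2, and was below it by 1.15 and 1.25 in POU5F1B replicates 1 and 2 (as log2 differences of -1.15 and -1.25). Both replicate 3 libraries lay between these pairs, at -0.52 for GFP and -0.50 for POU5F1B. RNA was taken from bulk cultures, so more cells in an epithelial state and more RNA of these genes per cell cannot be told apart.

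**Figure D1:**
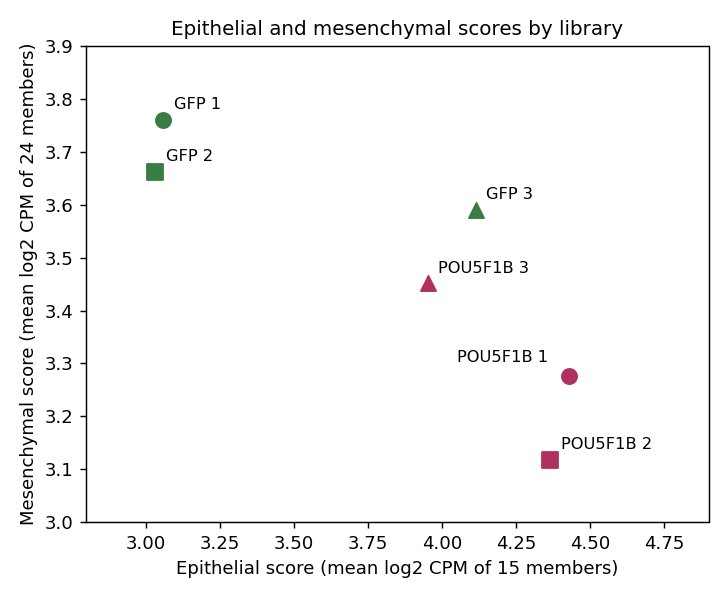
Each point is 1 library, with the mean log2 CPM of the 15 epithelial members on the horizontal axis and that of the 24 mesenchymal members on the vertical axis. Circles, squares and triangles are replicates 1, 2 and 3. GFP replicates 1 and 2 lie at the upper left (epithelial scores 3.06 and 3.03), POU5F1B replicates 1 and 2 at the lower right (4.43 and 4.36), and the 2 triangles between them.

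No gene passed the threshold of the study's methods with all 6 libraries. That threshold was a Benjamini-Hochberg adjusted p under 0.05 and a change over 2-fold, with voom and limma's moderated test. Thus 0 of the 29 members tested passed, against 0% of all 14286 genes tested, with 1698 genes at an unadjusted p under 0.05. edgeR's quasi-likelihood test also called 0 genes, with 1720 at an unadjusted p under 0.05, and DESeq2 called 232. In the voom fit the transgene POU5F1B itself did not pass, at a log2 fold change of 10.7 ± 2.78 (SE, limma adjusted p = 0.252). A count of 0 in this fit is therefore not evidence that genes did not differ. The paper counts SW480 among the settings with enough upregulated genes for a search of annotation terms. The other 10 members (GRHL2, RAB25, CDH2, ZEB2, SNAI2, TWIST1, TWIST2, PRRX1, CNN1 and THY1) were removed by the filter on low counts. Of the 13 epithelial members tested, 7 had an unadjusted p under 0.05 and were higher in the POU5F1B libraries, where 6.07% of all genes tested were, and 0 were lower, against 5.82%. In 4 of the 13 every POU5F1B library exceeded every GFP library, against 10.2% of all genes tested. All 13 had a log2 fold change above 0, as had 46.9% of all genes tested, and their median was 1.01, against a median of -0.02 over all genes. Of the 16 mesenchymal members tested, 3 were higher and 4 were lower at an unadjusted p under 0.05, against the same 6.07% and 5.82%. In 3 every POU5F1B library was above every GFP library and in 3 every one was below, where 9.21% of all genes tested lay below. Their median log2 fold change was -0.23.

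With replicates 1 and 2 only, 18 members passed the threshold. Of the 13 epithelial members, 11 rose, against 3.21% of all genes tested in that direction, and 0 fell, with a median log2 fold change of 1.87. Of the 16 mesenchymal members, CDH3 and SNAI1 rose and CDH11, FN1, SPARC, TPM2 and ZEB1 fell, against 5.15% of all genes tested that fell, with a median of -0.48. When GFP replicate 3 alone was left out, 9 epithelial members and CDH3 and SNAI1 rose (1.39% of all genes did), and CDH11 and FN1 fell (2.78%). When POU5F1B replicate 3 alone was left out, 0 members passed, of 5 genes in all. When libraries were weighted by their quality, GFP replicate 3 counting at 0.111, 17 members passed beside 7.54% of all genes tested. DESeq2 on all 6 libraries called 5 members, CDH1, CDS1 and CDH3 as higher and CDH11 and ZEB1 as lower, beside 1.62% of all genes tested.

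**Figure D2:**
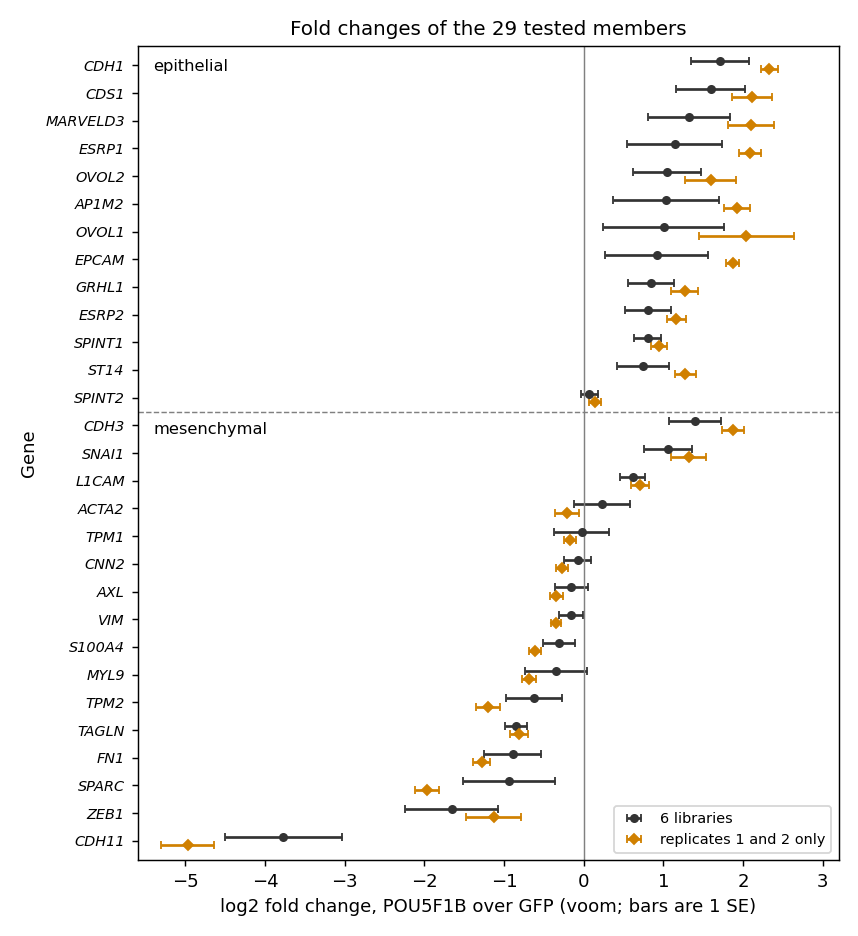
Points give the voom log2 fold change of each of the 29 tested members, POU5F1B over GFP, with bars of 1 standard error, from 6 libraries (circles) and from replicates 1 and 2 only (diamonds). The 13 epithelial members, above the dashed line, all lie right of 0 in both fits, with medians of 1.01 and 1.87, and CDH11 lies farthest left at -3.77 and -4.97.

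CDH1, which encodes E-cadherin, the adhesion receptor of adherens junctions, is ENSG00000039068 and lies at chr16:68771195-68869440 on the plus strand (hg19). It was read at 400, 396 and 836 counts in GFP replicates 1, 2 and 3 and at 2085, 1711 and 1181 in the POU5F1B libraries, or 33.6, 30.1 and 72.5 CPM against 164, 158 and 98.1 CPM. Every POU5F1B library was above every GFP library, with the highest GFP and the lowest POU5F1B value both in replicate 3. The log2 fold change was 1.72 ± 0.36 (SE, n = 3 per group, limma adjusted p = 0.207), and 2.33 ± 0.11 with replicates 1 and 2 only, past the threshold there. EPCAM, an epithelial surface adhesion protein, was at 86.6, 89.3 and 517 CPM in the GFP libraries and at 320, 330 and 252 CPM in the POU5F1B libraries. GFP replicate 3 held the highest EPCAM value of all 6 libraries and the other GFP libraries the lowest. Its log2 fold change was 0.92 ± 0.65 (SE, limma adjusted p = 0.610) over 6 libraries and 1.87 ± 0.08 with replicates 1 and 2 only.

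The ESRP proteins direct the splicing of transcripts such as those of FGFR2 and CD44 to their epithelial forms. ESRP2 was read at 286, 296 and 575 counts in the GFP libraries and at 685, 556 and 617 in the POU5F1B libraries, or 24.1, 22.5 and 49.8 CPM against 53.8, 51.4 and 51.2 CPM. The groups did not overlap, although GFP replicate 3 lay just under the POU5F1B values. ESRP2 had a log2 fold change of 0.81 ± 0.29 (SE, limma adjusted p = 0.353) over 6 libraries and 1.17 ± 0.12 with replicates 1 and 2 only, past the threshold there. ESRP1 was at 16.7, 14.0 and 80.1 CPM in the GFP libraries and at 63.0, 68.1 and 44.8 CPM in the POU5F1B libraries, and its highest value was again that of GFP replicate 3. For ESRP1 the log2 fold change was 1.14 ± 0.59 (SE, limma adjusted p = 0.495) over 6 libraries and 2.09 ± 0.14 with replicates 1 and 2 only.

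Among the transcription factors that maintain the epithelial state, GRHL1 was at 7.65, 8.90 and 12.9 CPM in the GFP libraries and at 20.1, 20.3 and 12.5 CPM in the POU5F1B libraries. The replicate 3 libraries were nearly level, and the log2 fold change was 0.84 ± 0.29 (SE, limma adjusted p = 0.349) over 6 libraries and 1.27 ± 0.17 with replicates 1 and 2 only. GRHL2, its better-known paralogue, had 4, 10 and 1 counts with GFP and 2, 4 and 3 with POU5F1B, too few for a test. OVOL2, a zinc-finger repressor of ZEB1, was at 1.35, 1.60 and 4.16 CPM in the GFP libraries and at 4.95, 4.16 and 3.82 CPM in the POU5F1B libraries. GFP replicate 3 lay among the POU5F1B values, and the log2 fold change of OVOL2 was 1.04 ± 0.43 (SE, limma adjusted p = 0.406), and 1.6 ± 0.32 without the replicate 3 libraries. OVOL1 was read at 7, 2 and 15 counts in the GFP libraries and at 21, 12 and 7 in the POU5F1B libraries, with a log2 fold change of 1.00 ± 0.76 (SE, limma adjusted p = 0.635). OVOL1 was past the threshold with replicates 1 and 2 only (log2 fold change 2.04 ± 0.60), a value that rests on 7 and 2 against 21 and 12 counts.

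**Figure D3:**
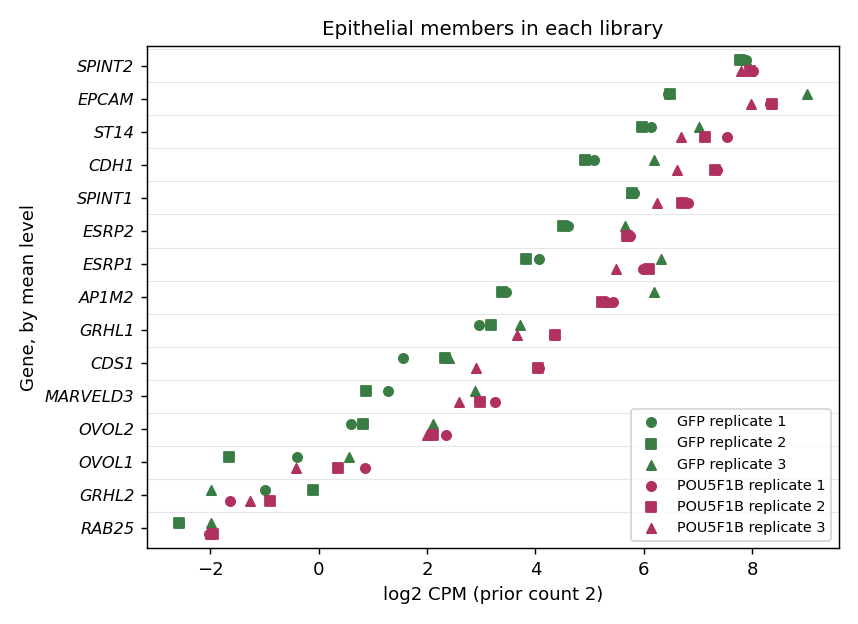
The log2 CPM (prior count of 2) of each of the 15 epithelial members is plotted for every library, green for GFP and magenta for POU5F1B, with circles, squares and triangles for replicates 1, 2 and 3. For CDH1, ESRP2, SPINT1 and CDS1 every magenta point lies right of every green point, and for EPCAM, ESRP1 and AP1M2 the green triangle (517, 80.1 and 72.6 CPM) is the highest point.

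ST14 encodes matriptase, a membrane serine protease of epithelia, and SPINT1 and SPINT2 encode the Kunitz-type inhibitors that hold it in check. SPINT1 (ENSG00000166145, chr15:41136216-41150405, plus strand, hg19) was read at 670, 718 and 621 counts in the GFP libraries and at 1428, 1123 and 911 in the POU5F1B libraries, or 56.3, 54.6 and 53.8 CPM against 112, 104 and 75.6 CPM. GFP replicate 3 did not depart from the other GFP libraries here, and the groups did not overlap. Its log2 fold change was 0.80 ± 0.17 (SE, limma adjusted p = 0.209), and 0.95 ± 0.10 with replicates 1 and 2 only, short of the required 2-fold. SPINT2 was nearly level, at 219 to 237 CPM in the GFP libraries and 221 to 258 CPM in the POU5F1B libraries, and the 95% interval of its log2 fold change ran from -0.18 to 0.32, with a value of 0.14 with replicates 1 and 2 only. ST14 was at 70.4, 62.7 and 130 CPM in the GFP libraries and at 186, 140 and 103 CPM in the POU5F1B libraries, with a log2 fold change of 0.75 ± 0.33 (SE, limma adjusted p = 0.430) over 6 libraries and 1.28 ± 0.13 with replicates 1 and 2 only.

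CDS1, a CDP-diacylglycerol synthase of the phosphoinositide cycle, was read at 33, 64 and 59 counts in the GFP libraries and at 210, 176 and 88 in the POU5F1B libraries, or 2.78, 4.87 and 5.11 CPM against 16.5, 16.3 and 7.31 CPM. The groups did not overlap, and the log2 fold change was 1.59 ± 0.43 (SE, limma adjusted p = 0.270), and 2.12 ± 0.25 with replicates 1 and 2 only. MARVELD3, a tight junction protein, was at 2.27, 1.67 and 7.2 CPM in the GFP libraries and at 9.34, 7.68 and 5.81 CPM in the POU5F1B libraries. The replicate 3 libraries stood in the opposite order to the others, and the log2 fold change of MARVELD3 was 1.32 ± 0.51 (SE, limma adjusted p = 0.386), and 2.1 ± 0.29 with replicates 1 and 2 only. AP1M2, the epithelial medium subunit of the clathrin adaptor that sorts proteins to the basolateral membrane, was at 10.8, 10.3 and 72.6 CPM in the GFP libraries and at 43.1, 37.5 and 40.3 CPM in the POU5F1B libraries. Its log2 fold change was 1.03 ± 0.67 (SE, limma adjusted p = 0.581) over 6 libraries and 1.93 ± 0.16 with replicates 1 and 2 only. RAB25, a small GTPase of recycling endosomes found in many epithelia, was read at no more than 1 count in any library.

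The promoters of 21 of the 39 members, with 33 start sites, were in the RefSeq table of windows from 250 bases before to 50 bases after a start site (GRCh38.p14). They were searched on both strands for the E-box CAGGTG, which the ZEB and SNAI repressors bind, for AACCGGTT, a motif of the GRHL factors, and for the CArG box of serum response factor. The E-box was in 20.6% of the 35116 windows of the table, AACCGGTT in 0.134% and the CArG box in 1.29%. Among the members, the E-box was in 4 of 6 epithelial windows (AP1M2, CDS1, RAB25 and SPINT1) and in 4 of 27 mesenchymal windows (AXL, S100A4 and ZEB1). By gene these were 4 of 5 epithelial and 3 of 16 mesenchymal members, as ZEB1 alone had a match in more than 1 window. The other epithelial members, CDH1 among them, had no window, so the 2 sides were not compared. AACCGGTT was in 0 of the 33 windows, and the CArG box in 1, that of CNN2, at position -89. The windows below are those of SPINT1 and CDS1 and the first of 2 overlapping windows of L1CAM, the members in the table with the smallest p-values, and that of AP1M2, which was added after its 3 matches were seen. They are printed in lower case along the strand of the gene, with E-box matches (CAGGTG or its reverse complement CACCTG) in capitals, and positions count from the start site.
SPINT1 upstream start (chr15:40843798-40844097, plus strand): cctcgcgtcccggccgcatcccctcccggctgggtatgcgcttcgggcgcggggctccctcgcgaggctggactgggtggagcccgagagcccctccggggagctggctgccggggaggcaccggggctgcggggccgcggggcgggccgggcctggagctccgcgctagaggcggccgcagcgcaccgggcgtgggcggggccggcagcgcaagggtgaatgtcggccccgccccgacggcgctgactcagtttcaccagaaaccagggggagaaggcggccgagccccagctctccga
SPINT1 downstream start (chr15:40844227-40844526, plus strand): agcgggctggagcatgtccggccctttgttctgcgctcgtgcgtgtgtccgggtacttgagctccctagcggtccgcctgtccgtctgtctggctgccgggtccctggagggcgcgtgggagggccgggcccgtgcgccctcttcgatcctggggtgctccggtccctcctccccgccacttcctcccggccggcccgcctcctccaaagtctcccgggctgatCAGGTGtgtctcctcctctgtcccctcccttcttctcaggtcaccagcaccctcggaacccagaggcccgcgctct
CDS1 (chr4:84582877-84583176, plus strand): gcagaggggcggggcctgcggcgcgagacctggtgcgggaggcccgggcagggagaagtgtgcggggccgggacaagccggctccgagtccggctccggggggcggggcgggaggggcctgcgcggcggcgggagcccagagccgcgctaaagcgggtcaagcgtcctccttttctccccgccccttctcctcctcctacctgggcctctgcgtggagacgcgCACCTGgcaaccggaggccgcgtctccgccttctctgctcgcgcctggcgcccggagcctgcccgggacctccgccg
AP1M2 (chr19:10587263-10587562, minus strand): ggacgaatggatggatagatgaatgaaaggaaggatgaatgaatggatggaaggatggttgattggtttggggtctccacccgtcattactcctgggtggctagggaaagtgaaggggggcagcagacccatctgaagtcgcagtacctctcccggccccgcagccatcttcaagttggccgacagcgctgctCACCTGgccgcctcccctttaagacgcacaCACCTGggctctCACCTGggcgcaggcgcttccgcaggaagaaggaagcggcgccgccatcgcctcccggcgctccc
L1CAM (chrX:153875895-153876194, minus strand): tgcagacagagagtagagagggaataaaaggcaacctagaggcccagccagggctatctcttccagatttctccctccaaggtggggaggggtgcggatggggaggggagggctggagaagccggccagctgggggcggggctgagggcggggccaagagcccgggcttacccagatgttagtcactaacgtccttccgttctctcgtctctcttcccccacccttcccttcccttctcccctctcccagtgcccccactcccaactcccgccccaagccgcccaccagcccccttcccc
The match in CDS1 is at position -27 and that in the downstream SPINT1 window at -26. AP1M2 holds matches at -57, -27 and -15. The upstream SPINT1 window and both L1CAM windows, the other at chrX:153875965-153876264, hold none of the 3 motifs. A match is a run of letters and was not tested for binding.

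On the mesenchymal side, the repressors that silence E-cadherin were mostly absent or at low levels. ZEB1 (ENSG00000148516, chr10:31607424-31818742, plus strand, hg19) was read at 68, 125 and 258 counts in the GFP libraries and at 31, 54 and 38 in the POU5F1B libraries, or 5.72, 9.50 and 22.4 CPM against 2.43, 5.0 and 3.16 CPM. Every POU5F1B library was below every GFP library, and the highest value was that of GFP replicate 3, in which the epithelial members EPCAM, ESRP1 and AP1M2 were also highest. For ZEB1 the log2 fold change was -1.66 ± 0.58 (SE, limma adjusted p = 0.351) over 6 libraries and -1.13 ± 0.34 with replicates 1 and 2 only. The antisense gene ZEB1-AS1, which overlaps ZEB1, was read at 24 to 78 counts.

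SNAI1 was higher in the POU5F1B libraries. It was read at 55, 55 and 99 counts in the GFP libraries and at 155, 108 and 146 in the POU5F1B libraries, or 4.63, 4.18 and 8.58 CPM against 12.2, 9.99 and 12.1 CPM. The groups did not overlap and the log2 fold change was 1.06 ± 0.30 (SE, limma adjusted p = 0.285), and 1.32 ± 0.22 with replicates 1 and 2 only, so this repressor of CDH1 stood higher in the same libraries as CDH1. SNAI2 was read at 6, 8 and 33 counts in the GFP libraries and at 9, 5 and 21 in the POU5F1B libraries, highest in the replicate 3 library of each group, and was not tested. ZEB2, TWIST2 and CDH2, the last encoding N-cadherin, were at 0 counts in all 6 libraries, where 3 counts would be 0.228 to 0.278 CPM. TWIST1 was read at 2 counts in GFP replicate 3 and 0 elsewhere, and PRRX1 at 0 to 6 counts with GFP and 0 to 2 with POU5F1B. In these cells the change of cadherins named for the transition, from CDH1 to CDH2, therefore could not be read from CDH2.

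The other cadherins of the list differed in opposite directions. CDH11 (ENSG00000140937, chr16:64977656-65160015, minus strand, hg19), a cadherin of mesenchymal and bone-forming cells, was read at 556, 549 and 429 counts in the GFP libraries and at 25, 10 and 170 in the POU5F1B libraries, or 46.8, 41.7 and 37.2 CPM against 1.96, 0.925 and 14.1 CPM. The groups did not overlap. POU5F1B replicate 3, the library with the least transgene RNA of its group, held the most CDH11 of its group. That library also stood apart across all genes, and any link between transgene level and CDH11 was not tested. The log2 fold change was -3.77 ± 0.73 (SE, limma adjusted p = 0.200), the farthest from 0 of the 29 tested members, and -4.97 ± 0.33 with replicates 1 and 2 only. CDH3, which encodes P-cadherin, was read at 260, 233 and 340 counts in the GFP libraries and at 977, 747 and 471 in the POU5F1B libraries. Every POU5F1B library exceeded every GFP library, with a log2 fold change of 1.40 ± 0.33 (SE, limma adjusted p = 0.230) over 6 libraries and 1.88 ± 0.14 with replicates 1 and 2 only. Many epithelia also express CDH3, and its values here followed the order of CDH1 within the POU5F1B libraries.

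**Figure D4:**
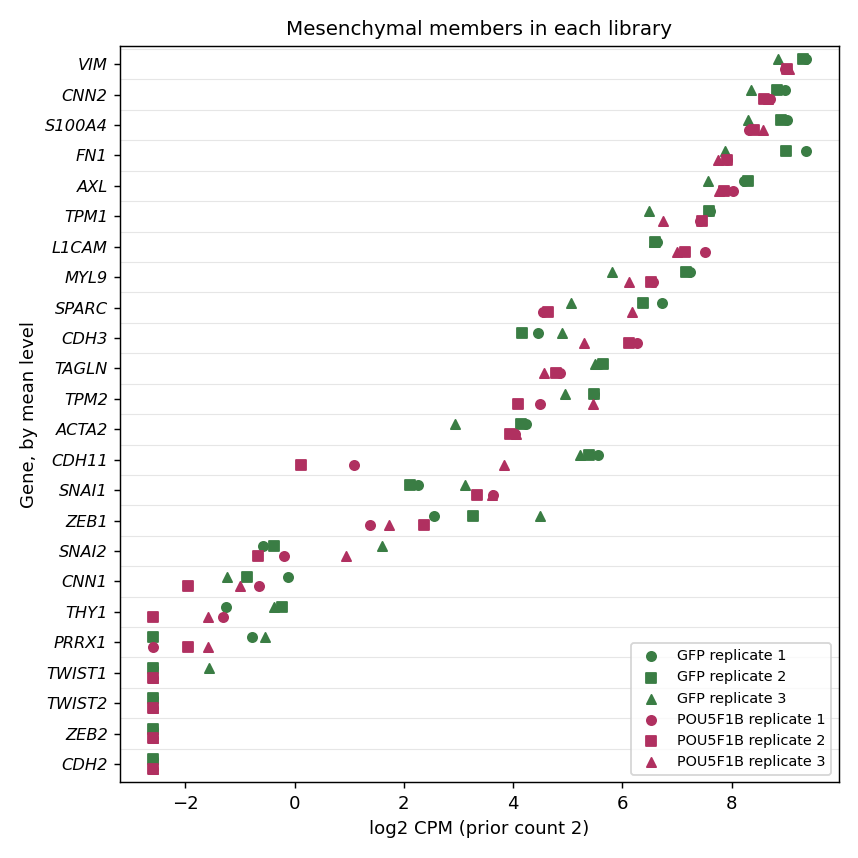
The log2 CPM (prior count of 2) of each of the 24 mesenchymal members is plotted for every library, with colours and symbols as for the epithelial members. The magenta points of CDH11 lie left of all its green points, those of CDH3, SNAI1 and L1CAM lie right of theirs, and CDH2, ZEB2 and TWIST2 sit at the lowest value in every library because their counts were 0.

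Of the filament and matrix proteins, VIM, which encodes vimentin, was abundant in both groups. It was at 656, 630 and 459 CPM in the GFP libraries and at 504, 517 and 528 CPM in the POU5F1B libraries, and GFP replicate 3 held the lowest value. The log2 fold change was -0.16 ± 0.15 (SE, limma adjusted p = 0.708), with a 95% interval from -0.51 to 0.20. It was -0.35 ± 0.07 (SE, limma adjusted p = 0.00225) with replicates 1 and 2 only and -0.33 (limma adjusted p = 0.0284) without GFP replicate 3, under the required 2-fold in both. FN1, which encodes fibronectin of the extracellular matrix, was at 657, 513 and 237 CPM in the GFP libraries and at 242, 240 and 216 CPM in the POU5F1B libraries, with GFP replicate 3 among the POU5F1B values. Its log2 fold change was -0.89 ± 0.36 (SE, limma adjusted p = 0.401) over 6 libraries and -1.28 ± 0.11 with replicates 1 and 2 only. SPARC, a secreted matrix glycoprotein, was at 106, 82.5 and 33.1 CPM in the GFP libraries and at 23.2, 24.9 and 72.6 CPM in the POU5F1B libraries, so the replicate 3 libraries stood in the opposite order to the others. For SPARC the log2 fold change was -0.93 ± 0.58 (SE, limma adjusted p = 0.569) over 6 libraries and -1.97 ± 0.15 with replicates 1 and 2 only.

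Among the contractile and actin-binding members, TAGLN, which encodes transgelin, had the smallest p-value of the 29 tested members. It was read at 570, 660 and 520 counts in the GFP libraries and at 368, 297 and 282 in the POU5F1B libraries, or 47.9, 50.2 and 45.1 CPM against 28.9, 27.5 and 23.4 CPM. The spread within each group was small, replicate 3 included, and the groups did not overlap. TAGLN had a log2 fold change of -0.85 ± 0.14 (SE, limma adjusted p = 0.185), and -0.81 ± 0.12 with replicates 1 and 2 only, under the required 2-fold in both. TPM2, a tropomyosin, was at 44.7, 44.6 and 30.7 CPM in the GFP libraries and at 22.4, 16.9 and 44.1 CPM in the POU5F1B libraries, and its log2 fold change was -0.62 ± 0.35 (SE, limma adjusted p = 0.527) over 6 libraries and -1.20 ± 0.15 with replicates 1 and 2 only. ACTA2 (smooth muscle actin), TPM1, MYL9 (a myosin light chain) and CNN2 (a calponin) had log2 fold changes of 0.23, -0.03, -0.35 and -0.07 over 6 libraries, each with groups that overlapped, and of -0.21, -0.17, -0.68 and -0.27 with replicates 1 and 2 only. All 4 had their lowest value in GFP replicate 3, for example 55.9 CPM of MYL9 against 152 and 143 CPM in the other GFP libraries. CNN1 was read at 1 to 9 counts.

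The remaining members are cell-surface or calcium-binding proteins. L1CAM, an adhesion molecule of neurons that tumour cells can express, was listed as mesenchymal and stood higher in the POU5F1B libraries. It was at 99.6, 96.5 and 95.6 CPM in the GFP libraries and at 183, 141 and 128 CPM in the POU5F1B libraries, with no overlap and little spread among the GFP libraries. Its log2 fold change was 0.62 ± 0.15 (SE, limma adjusted p = 0.240), and 0.71 ± 0.12 with replicates 1 and 2 only. The log2 fold changes of AXL, a receptor tyrosine kinase, and S100A4, a calcium-binding protein, were -0.15 and -0.31, with 95% intervals from -0.65 to 0.34 and from -0.78 to 0.16. In replicates 1 and 2 they were -0.34 (limma adjusted p = 0.00792) for AXL and -0.61 (limma adjusted p = 9.52e-05) for S100A4, and without GFP replicate 3 they were -0.39 and -0.54, all under 2-fold. THY1, a surface glycoprotein of fibroblasts, was read at 3, 9 and 7 counts in the GFP libraries and at 3, 0 and 2 in the POU5F1B libraries.

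Per length, S100A4 had the highest level of all members in both groups. In the GFP libraries S100A4 was at 462 ± 114 CPM per kb of exon (SD, n = 3), CNN2 at 118 ± 25.1 and VIM at 112 ± 20.7, and CNN2 and VIM did not differ beyond their spread. In the POU5F1B libraries S100A4 was at 366 ± 33.1 CPM per kb, and EPCAM came next, ahead of CNN2 at 111 ± 4.05 and VIM at 99.8 ± 2.33, with a spread that reached CNN2. EPCAM was the highest epithelial member in both groups, at 95.0 ± 102 CPM per kb in the GFP and 124 ± 17.6 in the POU5F1B libraries, its GFP spread taking in CNN2 and VIM, followed by SPINT2 at 45.3 ± 2.0 and 47.7 ± 3.82. CDH1 was at 7.47 ± 3.87 CPM per kb in the GFP libraries and 23.0 ± 6.0 in the POU5F1B libraries. In the GFP libraries CDH11, at 3.16 ± 0.360 CPM per kb, and CDH3, at 3.60 ± 0.933, lay within their spread of each other, and in the POU5F1B libraries they were at 0.427 ± 0.553 and 9.64 ± 3.11 CPM per kb. The SW480 cells of both groups held RNA of E-cadherin and EPCAM together with high levels of vimentin RNA.

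The departure of GFP replicate 3 touched the 2 sides of the list unequally. Against the mean of GFP replicates 1 and 2, 8 of the 13 tested epithelial members were more than 2-fold higher in GFP replicate 3, where 12.2% of all genes were, and 0 were more than 2-fold lower. Of the 16 tested mesenchymal members, 5 were more than 2-fold lower, where 9.68% of all genes were, and 1, ZEB1, was more than 2-fold higher. POU5F1B replicate 3 was also set against the same GFP replicates 1 and 2. There 7 of the 13 epithelial members were more than 2-fold higher (3.72% of all genes). Of the 16 mesenchymal members, 5 were more than 2-fold lower (3.8% of all genes) and 1, SNAI1, was more than 2-fold higher (3.72%). Against GFP replicate 3, 0 of the 13 epithelial members were more than 2-fold higher in POU5F1B replicate 3 and 1 was lower. Of the 16 mesenchymal members, 2 were higher and 2 lower, where 5.79% and 10.4% of all genes were. The median log2 differences between these 2 libraries were -0.12 for the epithelial and 0.29 for the mesenchymal members. Against POU5F1B replicates 1 and 2, the mesenchymal members CDH11, SPARC and TPM2 (3 of 16) were more than 2-fold higher in POU5F1B replicate 3, where 3.68% of all genes were, and the epithelial members OVOL1 and CDS1 (2 of 13) were more than 2-fold lower, where 2.09% were. These values compare single libraries and have no replicate check.

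Among the members, CDH11, ESRP2, CDH3, CDH1 and MARVELD3 lie on the long arm of chromosome 16, and CDH3 ends 9.82 kb before CDH1 begins. The interval from ESRP2 to MARVELD3 (chr16:68262936-71676017, hg19) was examined after these positions were seen. It held 44 tested genes, and the 40 that are not members had a median log2 fold change of 0.01 and ranged from -0.70 to 1.5. Of these 40, 1 was higher and 2 were lower at an unadjusted p under 0.05, where 6.07% and 5.82% of all genes tested were. With replicates 1 and 2 only, 0 passed the threshold, against 3.21% of all genes tested as higher and 5.15% as lower. CALB2, at 1.5, was the one neighbour in the range of the members, with an unadjusted p of 0.262.

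**Figure D5:**
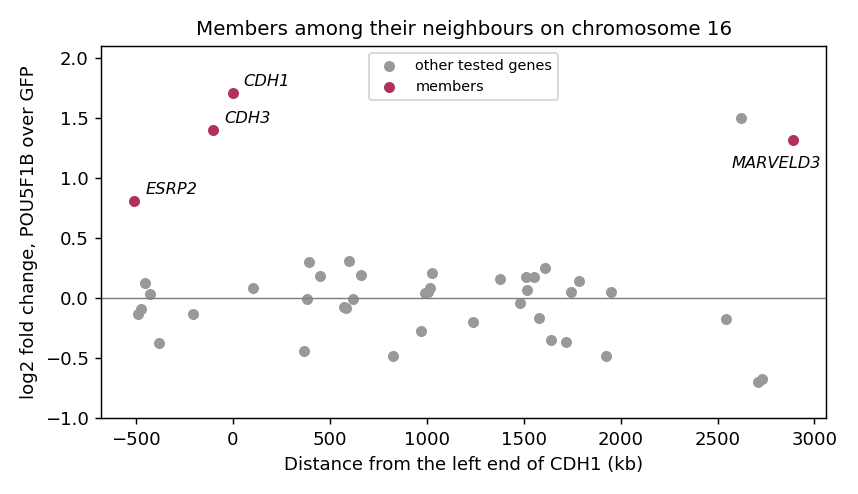
Each point is a tested gene between ESRP2 and MARVELD3 on chromosome 16, placed by the distance of its left end from that of CDH1 in kb, with its voom log2 fold change from 6 libraries on the vertical axis. The 4 members, in magenta, lie between 0.81 and 1.72, and the 40 other genes, in grey, have a median of 0.01.

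Other genes of the pathway were read in the same fit, from lists set beside the members. The partners of E-cadherin and of cell polarity showed no common direction. Of 18 tested, 3 were higher (CTNNB1, F11R and PARD6B) and 3 lower (CTNNA1, PRKCI and PALS1) at an unadjusted p under 0.05, where 6.07% and 5.82% of all genes tested were, with a median log2 fold change of -0.0050. With replicates 1 and 2 only, CRB3 passed the threshold as higher and 0 passed as lower, against 3.21% and 5.15% of all genes tested. Of the catenins, which tie E-cadherin to the cytoskeleton, 2 had groups that did not overlap. CTNNB1 was at 991, 946 and 1104 CPM in the GFP and 1219, 1332 and 1310 CPM in the POU5F1B libraries (log2 fold change 0.35 ± 0.10, SE, and 0.38 with replicates 1 and 2 only). CTNNA1 was at 1420, 1265 and 1047 CPM against 835, 859 and 898 CPM (-0.52 ± 0.13, and -0.67 with replicates 1 and 2 only). The groups overlapped for CTNND1 (-0.14 ± 0.10, and -0.24 with replicates 1 and 2 only) and JUP (0.10 ± 0.16, and 0.20). PALS1, a scaffold of the Crumbs polarity complex, had a log2 fold change of -0.59 ± 0.17, and of -0.45 without replicate 3. Of 18 other epithelial genes tested, 6 were higher and 1 was lower, against the same 6.07% and 5.82%, with a median of 0.65. With replicates 1 and 2 only, 9 of them passed the threshold as higher and 1 as lower, against the same 3.21% and 5.15%. Their median was then 0.98. ELF3, an epithelial ETS factor, was at 10.3, 9.20 and 8.93 CPM in the GFP libraries and at 23.3, 17.6 and 16.2 CPM in the POU5F1B libraries (log2 fold change 0.99 ± 0.21, and 1.06 with replicates 1 and 2 only), and the receptor ERBB3 had a log2 fold change of 1.01 ± 0.28, and of 1.43 with replicates 1 and 2 only. EHF, an ETS factor of the same branch as ELF3, was the lower gene, at 102, 78.8 and 180 CPM against 25.0, 23.8 and 53.4 CPM (log2 fold change -1.83 ± 0.42, and -1.88 with replicates 1 and 2 only).

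Of 7 other transcription factors of the transition that were tested, SIX2 was higher at an unadjusted p under 0.05 (log2 fold change 1.81 ± 0.42, at no more than 3.69 CPM) and 0 were lower, against 6.07% and 5.82% of all genes tested, and TCF3 and FOXQ1 had log2 fold changes of -0.43 ± 0.20 and -0.53 ± 0.25. Without the replicate 3 libraries, SIX2 passed the threshold at 2.04 and PRRX2 at -1.18 (3.21% of all genes passed as higher, 5.15% as lower). TCF3 and FOXQ1 were then at -0.48 and -0.64. The median of these 7 factors was -0.26 over 6 libraries and -0.25 with replicates 1 and 2 only. Of 23 other mesenchymal, motility and contractile genes tested, 1 was higher and 4 were lower, against 6.07% and 5.82% of all genes tested, with a median of -0.0016. With replicates 1 and 2 only, 1 passed the threshold as higher and TNC, FSTL1 and WNT5A as lower, against the same 3.21% and 5.15%. The median of the 23 was then -0.03. CALD1, which encodes the actin-binding caldesmon, was at 145, 181 and 141 CPM in the GFP libraries and at 79.4, 87.3 and 48.7 CPM in the POU5F1B libraries (log2 fold change -1.16 ± 0.23, and -0.98 with replicates 1 and 2 only). WNT5A, a ligand of non-canonical Wnt signalling, was at 372, 329 and 124 CPM against 78.0, 81.8 and 93.7 CPM (-1.56 ± 0.42, and -2.14 with replicates 1 and 2 only), and FSTL1, a secreted glycoprotein, was at or below 4.96 CPM throughout (-3.30 ± 0.86, and -4.37 without replicate 3). Over 6 libraries, limma adjusted p-values of all genes in these lists were at least 0.207.

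Markers of other cell types were at or near 0 apart from a few fibroblast genes. Of the 8 fibroblast markers 2 were tested, COL3A1 and FAP were at 0 in every library, and the summed level was 27.4 to 171 CPM in the GFP and 13.4 to 22.8 CPM in the POU5F1B libraries. Most of that sum came from COL1A1, a collagen chain, at 141, 118 and 16.8 CPM against 6.75, 5.55 and 9.47 CPM, and PDGFRB, a growth factor receptor, at 28.2, 28.7 and 7.2 CPM against 8.71, 7.68 and 12.5 CPM. COL1A1 had a log2 fold change of -3.22 ± 1.09 over 6 libraries and -4.39 with replicates 1 and 2 only, and PDGFRB of -0.95 ± 0.59 and -1.8, so both moved with CDH11, FN1 and SPARC in replicates 1 and 2. The summed endothelial markers were at most 6.52 CPM and the summed leukocyte markers at most 0.433 CPM. The part of other cells in the mesenchymal values was not tested.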

How the data were processed

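RNA was sequenced with a stranded kit. The authors aligned the reads to hg19 with HISAT2 and deposited raw counts per gene from featureCounts. The annotation release and the strand setting of the counting are not given in the sources used here, so the counts of 9 members that overlap an opposite-strand gene with 10 counts or more (ESRP2, OVOL2, SPINT1, MARVELD3, VIM, ZEB1, TAGLN, ACTA2 and THY1) are uncertain, as are those of POU5F1B, a close copy of POU5F1. Gene IDs were matched to symbols and hg19 positions through the reference annotation (87.4% of 63677 rows had a symbol; CD24 and PECAM1 of the lists were not matched).

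Genes were kept with edgeR's filterByExpr (14286 genes) and scaled by TMM (edgeR 4.0.16), and tested with voom and limma 3.58.1 (R 4.3.3) without a replicate term. A gene passed at a Benjamini-Hochberg adjusted p under 0.05 and a change over 2-fold. Log2 CPM used a prior count of 2. Scores are means over all members, low ones included, with no test. Members, lists and the use of replicates 1 and 2 only were chosen with earlier results of these data known. Members were named in full where they anchor a state, had an unadjusted p under 0.05, had groups that did not overlap with an absolute log2 fold change over 0.5, or passed with replicates 1 and 2 only at one over 2, and from each other list the 3 smallest p-values were named. SPARC, TPM2, ST14, AP1M2, TNC, CRB3, PRRX2, VIL1, COL1A1, PDGFRB and CALB2 were described after their values were seen, and some genes of the other lists are not reported here. The fits were tested on simulated data. Replicate pairs differed by more than sampling noise (chi-square per degree of freedom of 4.21 or more). Alternatives were DESeq2 1.42.0, edgeR's quasi-likelihood test, other scalings and filters, sample quality weights, a replicate block and leaving out libraries. The 95% intervals of fold changes come from the limma fit, and the floor of 3 counts covers counting error only.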

Additional observations from a re-analysis of the deposited data

How the results depend on the processing

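With all 6 libraries 0 genes and 0 members passed the threshold in the main voom fit. This depended on the test and, among the libraries, mostly on GFP replicate 3. DESeq2 called 232 genes and 5 members, sample quality weights 1077 and 17, and replicates 1 and 2 only 1194 and 18. Leaving out 1 library at a time gave 0 to 595 genes and 0 to 13 members, the highest without GFP replicate 3, and without POU5F1B replicate 3 it gave 5 genes and 0 members. Without the filter on low counts 4 genes passed and 0 members. The replicate block gave 1 gene and 0 members. The deviations of libraries with the same number correlated at 0.242, 0.0883 and 0.165, so the numbers were not taken to pair the libraries, and GFP replicate 2 correlated best with POU5F1B replicate 1 (0.250). The epithelial score difference of 0.85 was 1.35 with replicates 1 and 2 only and 0.66 to 1.2 when 1 library was left out. The mesenchymal difference of -0.39 was -0.69 as a median over members, and -0.31 to -0.47 when 1 library was left out. Of the log2 fold changes of single members under all alternatives, 371 kept their direction and side of the threshold, 53 passed it and 10 changed sign. ACTA2 was -0.14 with quality weights, -0.21 with replicates 1 and 2 only and -0.19 to 0.45 when 1 library was left out. TPM1 was 0.029 with upper-quartile scaling and -0.40 to 0.22 when 1 library was left out, and CNN2 and AXL then ran from -0.26 to 0.054 and from -0.39 to 0.0019. The cause was not tested. Members under about 10 counts per library were too shallow for a test.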

Other observations

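TNC, which encodes the matrix protein tenascin-C, was at 170, 114 and 68.1 CPM in the GFP libraries and at 40.9, 41.2 and 75.9 CPM in the POU5F1B libraries, so the replicate 3 libraries were close to each other, as they were for FN1. Its log2 fold change was -1.12 ± 0.39 (SE, limma adjusted p = 0.350) over 6 libraries and -1.77 with replicates 1 and 2 only.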
